A study of Mus musculus with 6 samples.

Results

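The matrix metalloproteinases (*Mmp*), the ADAMTS proteases (*Adamts*), the ADAMTS-like proteins (*Adamtsl*) and the tissue inhibitors of metalloproteinases (*Timp*) were examined in mouse inguinal adipose tissue (iAT). The members were chosen by name: every gene of the deposited table whose symbol is *Mmp*, *Adamts*, *Adamtsl* or *Timp* followed by digits only. This rule found 48 of the 19831 genes listed, of which 20 were *Mmp*, 19 *Adamts*, 5 *Adamtsl* and 4 *Timp* genes. RNA sequencing was carried out on total RNA of iAT, the subcutaneous fat of the groin, at postnatal day 6. The animals were kept under SPF conditions, and RNA was taken from tissue with TRIzol. There were 3 wild-type samples, labelled WT, and 3 Npffr1-KO samples, labelled KO, in which the gene of the neuropeptide FF receptor NPFFR1 is disrupted. The labels name no agent or other allele in either genotype, and the sources used here do not give how the knockout allele was made, in which cells it acts, or whether a sample is 1 animal.

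Matrix metalloproteinases are zinc-dependent enzymes that cut collagens, gelatin, elastin and other proteins of the extracellular matrix. They are made as inactive proenzymes and are activated by the removal of a propeptide. ADAMTS proteases are secreted relatives that trim procollagens, aggrecan and versican, and von Willebrand factor. ADAMTS-like proteins have the matrix-binding parts of an ADAMTS protease but lack its catalytic domain, and several of them bind fibrillin microfibrils. TIMPs block the active site of these enzymes. In adipose tissue, the balance of these proteins is known for its role in remodelling the matrix around expanding fat cells.

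The deposited table gives 1 value per gene and genotype: the read count normalized for library size, combined over the 3 libraries of a genotype by the authors. No SD belongs to these values. They are not plain means, because the values of both genotypes lie close together for genes with few reads. Of the 585 genes with a single read in all libraries, the log2 ratio of the values of the genotypes was at most 0.07 in size. Differences between genotypes are given as the log2 ratio of the Npffr1-KO value to the wild-type value, and ratios of low genes are therefore understated. A log2 ratio of 0.5 in size, set for this report, counts as higher or lower. It is a size and not a test.

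The values of all genes sum to 2.31e+07 normalized counts in wild-type iAT against 2.36e+07 in Npffr1-KO iAT. The library size factors worked out from the values lie between 0.916 and 1.04. *Npffr1* itself had 1, 0 and 5 reads in the wild-type libraries and 0 reads in each Npffr1-KO library, so it was at 0 in each library labelled KO, although the reads are too few to check the labels firmly. The adipocyte genes were at high levels in both genotypes, with 37027 and 35360 normalized counts of *Adipoq* and 156285 and 173188 of *Fabp4*. In such bulk tissue, fewer cells of a type and less RNA per cell cannot be told apart.

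Of the 48 members, 43 had a mean of at least 10 normalized counts over the genotypes and are described by their ratio. They were 15 *Mmp* genes, all 19 *Adamts*, all 5 *Adamtsl* and all 4 *Timp* genes. The other 5 were *Mmp7*, *Mmp10*, *Mmp13*, *Mmp21* and *Mmp24*. All members together held 60119 normalized counts in wild-type iAT compared with 51074 in Npffr1-KO iAT, which is 0.260% and 0.216% of the respective sums.

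Levels of different genes were compared after dividing the normalized count by the listed gene length in kilobases. On this scale 4 genes made up 56.6% of the wild-type sum of all members and 54.6% of the Npffr1-KO sum. They were *Timp2* with 2962 in wild-type and 2413 in Npffr1-KO iAT, *Timp3* with 2162 and 1544, *Mmp14* with 2015 and 1794, and *Mmp2* with 1705 and 1433. This set holds the membrane-bound protease MMP14, its substrate proMMP2, and TIMP2, which links the pair at the cell surface during proMMP2 activation. The next genes in wild-type iAT were *Mmp23* and *Adamts10*, both with 828 per kilobase, *Timp4* with 674, *Mmp15* with 581, *Adamts2* with 495 and *Adamtsl4* with 448. The 10 highest members in wild-type iAT were also the 10 highest in Npffr1-KO iAT. By families, *Mmp* genes held 38.8% of the wild-type sum per kilobase, *Timp* genes 38.1%, *Adamts* genes 18.4% and *Adamtsl* genes 4.73%.

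Below these lay, in falling order in wild-type iAT, *Adamts9* with 316 per kilobase, *Mmp28*, *Adamtsl5*, *Adamts13*, *Mmp11*, *Mmp19*, *Adamts5*, *Timp1*, *Adamts7* and *Adamts1* with 129.7 per kilobase. The next group ran from *Adamts14* with 97.6 per kilobase through *Mmp9*, *Adamts4*, *Adamts12*, *Adamts15*, *Adamts17*, *Adamts20*, *Adamtsl1* and *Mmp17* to *Mmp25* with 37.3. The group after it ran from *Mmp3* with 33.5 per kilobase through *Adamts18*, *Adamts19*, *Adamts6*, *Adamts8*, *Adamtsl3*, *Mmp16*, *Adamts16*, *Mmp27* and *Mmp12* to *Mmp8* with 5.18. *Adamtsl2* with 4.05 and *Adamts3* with 3.41 were the lowest members with a mean of at least 10. The genotype values carry no spread between libraries, so whether neighbours in this order differ was not tested.

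**Figure D1:**
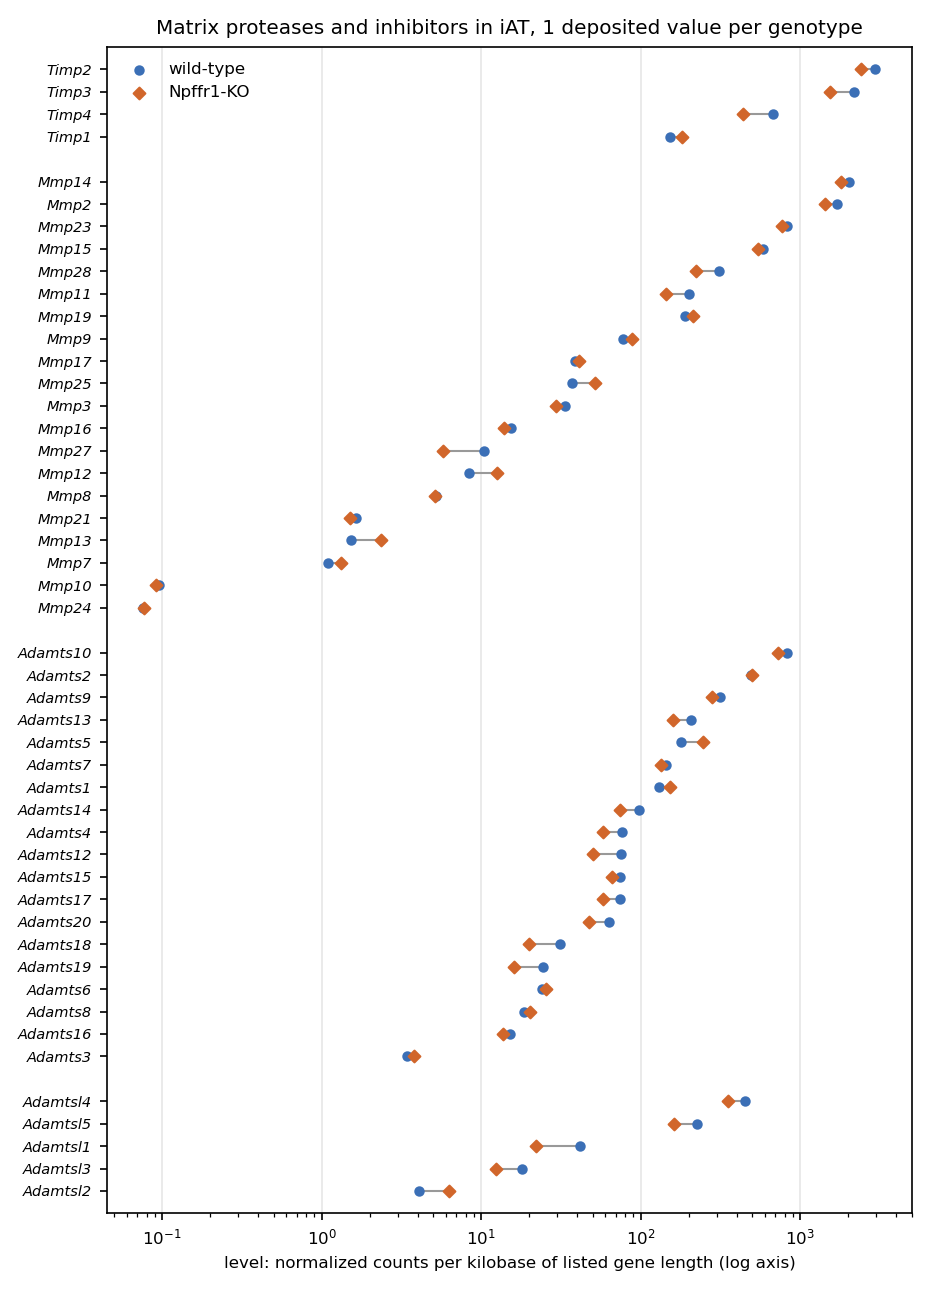
Levels of the 48 members in iAT, as normalized counts per kilobase of listed gene length on a log axis. Circles are the wild-type value and diamonds the Npffr1-KO value, each the authors' single value per genotype with no error. *Timp2* is highest with 2962 per kilobase in wild-type iAT, and *Mmp10* and *Mmp24* lie below 0.1.

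The low end of this order held a cluster of *Mmp* genes. *Mmp3*, *Mmp7*, *Mmp8*, *Mmp10*, *Mmp12*, *Mmp13* and *Mmp27* lie on chromosome 9 and took the places from the 31st to the 47th of the 48 members by wild-type level per kilobase. Promoters of 33 of the 48 members were found in the RefSeq table of build GRCm38.p6, from 250 bases before to 50 bases after the gene start, including all 7 of the cluster. The search covered both strands for 3 short motifs: TGANTCA, the site of the AP-1 transcription factors, TATAAA, the TATA box, and GGGCGG, the GC box bound by SP1. The motifs and the comparison of the cluster with the other members were chosen with the levels known and describe these windows only.

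The AP-1 letters were in the windows of 5 of the 7 cluster genes and of 0 of the 26 other members, against 7.48% of the 15196 table genes with a window. TATAAA was in 6 of 7 and 3 of 26, against 11.3% of the table genes. Within the cluster, matches that ended before the gene start were found only for *Mmp3*, *Mmp7*, *Mmp10* and *Mmp13*. Among the other members, *Adamts1*, *Adamtsl2* and *Mmp21* had such a match. GGGCGG was in 0 of 7 and 22 of 26, against 57.2% of the table genes. The AP-1 letters of the cluster genes are shown because they were found in no window of the other members, with the matching letters in capitals. All 5 lie on the plus strand and end between 29 and 57 bases before the gene start, outside the first exon.
*Mmp13*, chr9:7272468-7272496, 29 bases before the start: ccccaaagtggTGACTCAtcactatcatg
*Mmp12*, chr9:7347319-7347347, 38 bases before the start: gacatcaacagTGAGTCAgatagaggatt
*Mmp3*, chr9:7445765-7445793, 40 bases before the start: ggaagcaattaTGAGTCAgttttcgggtg
*Mmp10*, chr9:7502268-7502296, 57 bases before the start: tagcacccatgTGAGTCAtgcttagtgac
*Mmp7*, chr9:7692016-7692044, 57 bases before the start: aagtgtgcaaaTGAGTCAcctatttccac

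For contrast, the last GC box before the gene start is shown for the 3 highest members. Matching letters are in capitals, read along the strand of the gene. *Timp2* lies on the minus strand and the other genes on the plus strand, and CCGCCC is the same box on the opposite strand.
*Timp2*, chr11:118355431-118355459, 32 bases before the start: tggggagggctGGGCGGcgcggcgcggga
*Timp3*, chr10:86300386-86300411, 10 bases before the start: ccgggccggctCCGCCCtgtcgcccc
*Mmp14*, chr14:54431574-54431597, 8 bases before the start: cattggggcggGGGCGGaggagag
A match of letters is no evidence of binding, and no measurement of a bound factor was analysed here.

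The genotype ratios of the members leaned to lower values in Npffr1-KO iAT. Of the 43 members, 7 were lower by at least 0.5 on the log2 scale, against 4.78% of the 15309 genes of all kinds that passed the same minimum. They were *Adamtsl1*, *Mmp27*, *Adamts18*, *Timp4*, *Adamts19*, *Adamts12* and *Adamtsl3*. The 2 that were higher by at least 0.5 were *Adamtsl2* and *Mmp12*, a share close to the background of 4.37%. A log2 ratio below 0 was found for 30 of 43 members, against 48.8% of all genes and 64.3% of genes of like length, described next. The median log2 ratio was -0.17 over the members and 0.01 over all genes. No member reached a log2 ratio of 1 in size, against 0.314% of all genes on the lower and 0.483% on the higher side.

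Listed gene length moved with these ratios. Across all genes, the median log2 ratio went from 0.27 in the class of shortest genes to -0.15 in the class of longest genes, and the members had a median length of 4335 bases against 2785 for all genes. Among the 4310 genes within the middle range of member lengths, 3334 to 5915 bases, the median was -0.07, 64.3% lay below 0, and 5.17% were lower and 2.27% higher by at least 0.5. When each ratio was centred on the median gene of its length class, 6 members were lower and 4 higher, against 5.17% and 3.36% of all genes. *Adamtsl1*, *Mmp27*, *Adamts18*, *Timp4* and *Adamts19* were lower on both scales, and *Adamtsl2* and *Mmp12* higher on both. *Adamts12* and *Adamtsl3* left the lower group, *Mmp11* joined it, and *Adamts5* and *Mmp25* joined the higher group. With centring, 29 of 43 members lay below 0, against 50% of all genes, and their median was -0.12.

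**Figure D2:**
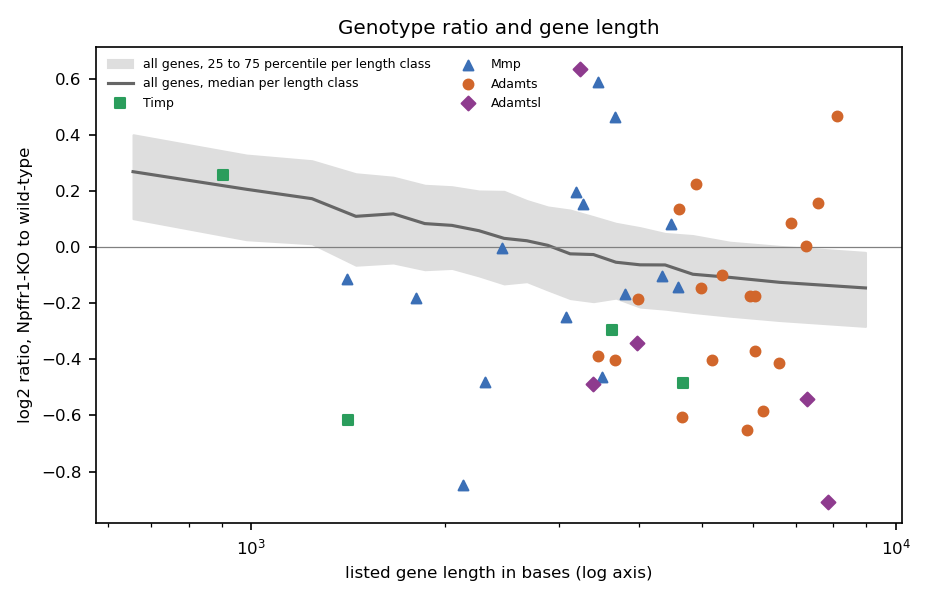
Log2 ratio of the Npffr1-KO to the wild-type value against listed gene length on a log axis, for the 43 members with a mean of at least 10. The line and band give the median and the 25 to 75 percentiles of all genes in 20 classes of length. The band falls from short to long genes, and 29 of the 43 members lie below the median of their length class.

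The 4 inhibitors differed among themselves. *Timp2* had 10766 normalized counts in wild-type iAT and 8771 in Npffr1-KO iAT, a log2 ratio of -0.30. *Timp3*, whose protein binds to the matrix and also inhibits ADAMTS proteases and ADAM17, had 10119 and 7225, a log2 ratio of -0.49, just short of 0.5 in size. *Timp4*, an inhibitor known for its expression in fat and heart, had 954 and 623, a log2 ratio of -0.62. *Timp1*, an inducible inhibitor that acts poorly on membrane-type enzymes, was the exception, with 138 and 165 and a log2 ratio of 0.26. That value was 0.05 after centring on genes of like length, since *Timp1* has a listed length of 903 bases. The family median was -0.39, or -0.31 after centring, and reads per library could not be worked out for any *Timp* gene.

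*Timp1*, *Timp3* and *Timp4* each lie inside a synapsin gene, *Syn1*, *Syn3* and *Syn2* respectively. These host genes were much lower than the inhibitors, with 21.5 normalized counts of *Syn1*, 85.2 of *Syn3* and 151 of *Syn2* in wild-type iAT. In Npffr1-KO iAT they had 16.8, 76.3 and 94.4. Whether the reads were counted by strand is not given in the sources used here.

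Among the *Mmp* genes, the 5 membrane-type members with a mean of at least 10 had a median log2 ratio of -0.10. *Mmp14*, the main activator of proMMP2, had 7659 normalized counts in wild-type iAT against 6819.9 in Npffr1-KO iAT, a log2 ratio of -0.17. *Mmp15* had 2519 and 2346, a log2 ratio of -0.10. *Mmp16* had 70.9 and 64.1, a log2 ratio of -0.14. The GPI-anchored members went the other way. *Mmp17* had 174 and 184, a log2 ratio of 0.08, and *Mmp25*, known from leukocytes, had 137 and 189, a log2 ratio of 0.46. *Mmp25* passed 0.5 only after centring on genes of like length, with 0.52.

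The gelatinases, which degrade denatured collagen and basement membrane collagen, were split. *Mmp2* had 5249 normalized counts in wild-type iAT compared with 4410.25 in Npffr1-KO iAT, a log2 ratio of -0.25. *Mmp9*, known from macrophages and neutrophils, had 246 and 282, a log2 ratio of 0.20. Macrophage marker genes (*Adgre1*, *Csf1r*, *Cd68*, *Mrc1* and *Lyz2*) summed to 17266 normalized counts in wild-type iAT and 20209 in Npffr1-KO iAT. Of these sums, *Lyz2* alone held 9262 and 11951. The log2 ratio was above 0 for 3 of 5 and below 0 for 2 of 5. After centring on genes of like length, it was below 0 for 1 of 5. *Adgre1*, the lowest of the 5, had 460.4 normalized counts in wild-type iAT. The neutrophil markers *S100a8*, *S100a9*, *Ngp*, *Ltf*, *Camp* and *Elane*, those of the 7 with a mean of at least 10, summed to 405 and 319.8, and the defining marker *Ly6g* had between 0 and 4 reads a library. The part of these cells in the *Mmp9* or *Mmp25* values was not tested.

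Of the enzymes outside these groups, *Mmp11*, or stromelysin-3, an enzyme known from fibroblasts of remodelling tissue, had 459.8 normalized counts in wild-type iAT against 329.8 in Npffr1-KO iAT, a log2 ratio of -0.48. *Mmp28*, or epilysin, had 1078 and 782, a log2 ratio of -0.46. *Mmp23*, which is anchored in the membrane by its propeptide, had 1167 and 1077, a log2 ratio of -0.12. *Mmp19*, a secreted enzyme that cuts basement membrane proteins, had 624 and 694, a log2 ratio of 0.15. *Mmp19*, *Mmp23*, *Mmp25* and *Mmp28* overlap another annotated gene.

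**Figure D3:**
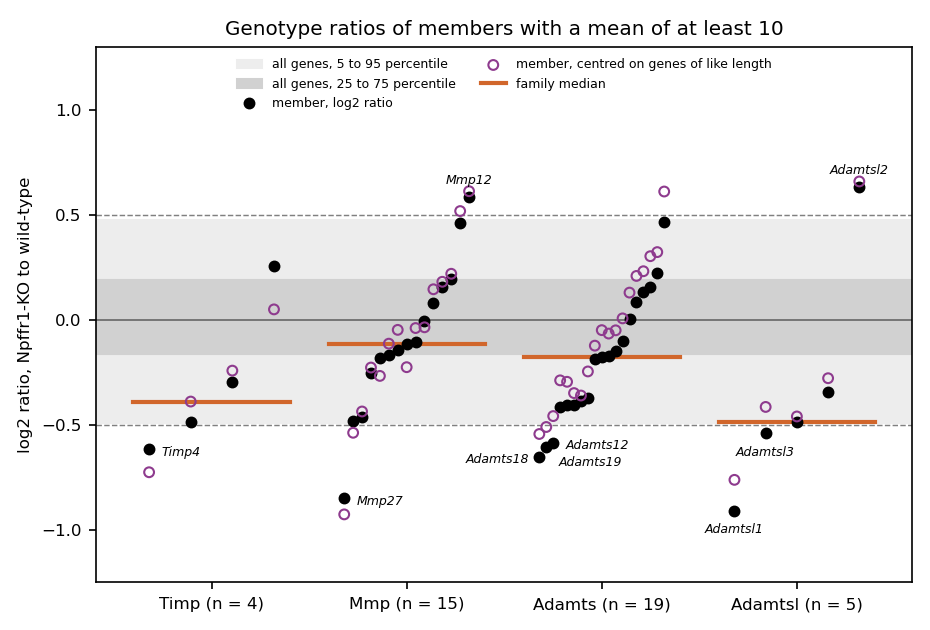
Log2 ratio of the Npffr1-KO to the wild-type value for the 43 members with a mean of at least 10, by family and sorted within it. Filled points are the ratios, open points the ratios centred on genes of like length, bars the family medians, dashed lines the bounds at 0.5, and grey bands the 5 to 95 and 25 to 75 percentiles of all genes. The family medians lie at -0.39 (*Timp*), -0.12 (*Mmp*), -0.17 (*Adamts*) and -0.49 (*Adamtsl*), and the named points are those past a bound.

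The proteoglycanases of the *Adamts* family, which cut aggrecan and versican, went both ways. *Adamts5* had 1452 normalized counts in wild-type iAT compared with 2005 in Npffr1-KO iAT, a log2 ratio of 0.47, or 0.61 after centring on genes of like length. *Adamts1*, its neighbour on chromosome 16, had 636 and 744, a log2 ratio of 0.23. *Adamts8* had 85.4 and 93.7, a log2 ratio of 0.13. Lower ratios were found for *Adamts9*, the most abundant of the group per kilobase, and for the rest. *Adamts9* had 1911.5 and 1694, a log2 ratio of -0.17, and *Adamts15* had 444 and 394, also -0.17. *Adamts4* had 282 and 213, a log2 ratio of -0.40. *Adamts20* had 417 and 313, a log2 ratio of -0.41. None of the 7 passed 0.5 without centring.

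The procollagen N-proteinases remove the N-terminal propeptide of fibrillar procollagens. *Adamts2*, the main enzyme of the group in skin, had 3597 normalized counts in wild-type iAT and 3608 in Npffr1-KO iAT, a log2 ratio of 0.00. *Adamts14* had 506 and 383, a log2 ratio of -0.40. *Adamts3* had 25.9 and 28.8, a log2 ratio of 0.16. The ADAMTS proteases that cut cartilage oligomeric matrix protein (COMP) were *Adamts7*, with 772 and 720.3 and a log2 ratio of -0.10, and *Adamts12*, with 469 and 313 and a log2 ratio of -0.58. *Adamts13*, which cuts von Willebrand factor, had 719 and 549.7, a log2 ratio of -0.39. Its substrate *Vwf*, an endothelial gene, had 3613 and 1998, a log2 ratio of -0.85. The endothelial markers *Pecam1*, *Cdh5* and *Kdr* were all below 0, with ratios from -0.41 to -0.28 and sums of 48763 and 38529.7, and their part in the values of *Adamts13* and *Vwf* was not tested.

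Of the remaining *Adamts* genes, *Adamts10* and *Adamts6* encode related proteases, the former known to act on fibrillin-1. *Adamts10* had 3297.5 normalized counts in wild-type iAT against 2898 in Npffr1-KO iAT, a log2 ratio of -0.19, and *Adamts6* had 166 and 176, a log2 ratio of 0.08. *Adamts17* had 451 and 349, a log2 ratio of -0.37. *Adamts16* had 75.6 and 68.3, a log2 ratio of -0.15. *Adamts18*, a close relative of *Adamts16*, and *Adamts19*, a close relative of *Adamts17*, were lower in Npffr1-KO iAT by more than 0.5. *Adamts18* had 185 and 118, a log2 ratio of -0.65, and *Adamts19* had 113 and 74.5, a log2 ratio of -0.61. The family median was -0.17, and -0.065 after centring on genes of like length.

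The *Adamtsl* genes had the lowest family median, -0.49, and -0.41 after centring, over 5 members. *Adamtsl1*, or punctin-1, had 327 normalized counts in wild-type iAT compared with 174 in Npffr1-KO iAT. Its log2 ratio of -0.91 was the lowest of the 43 members and lay at the 0.627 percentile of all genes. *Adamtsl3*, or punctin-2, had 130.5 and 89.7, a log2 ratio of -0.54, the member nearest to the bound from inside. *Adamtsl5* had 769 and 549, a log2 ratio of -0.49, the nearest to it from outside. *Adamtsl4*, which binds fibrillin-1, had 1780.4 and 1405, a log2 ratio of -0.34. *Adamtsl2*, which also binds fibrillin and is known for its role in geleophysic dysplasia, had 13.1 and 20.4, a log2 ratio of 0.64.

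For genes with few reads, the reads of each library were worked out from the mean of the genotype values and the library size factors. The libraries are lettered a to c within a genotype and are not tied to the sample numbers. The search succeeded for 99.3% of all genes with a mean of 10 to 60 and for 95.8% of those with a mean of 60 to 100. It gave values for 17 members, among them all 5 with a mean under 10 and all 10 with a mean of 10 to 100. Of the 19 members with a mean of 100 to 700 that were searched, it gave values for 2, *Adamtsl3* and *Adamts18*. Reads were accepted more readily where the libraries lay close to the value of their genotype. At a mean over 100 this favours genes with little spread within a genotype. With 3 against 3 libraries, a two-sided exact permutation test of the mean cannot give a p under 0.1, and no member could pass 0.05. The p-values are unadjusted, and adjustment could only raise them. Since nothing in the labels says that the samples of a genotype come from separate animals, these p-values measure only the spread between libraries.

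*Adamtsl2* had 13.5, 12.7 and 9.92 normalized counts in the wild-type libraries a, b and c, against 21.2, 18.2 and 25.1 in those of Npffr1-KO iAT. The mean was 12.1 ± 1.89 (SD, n = 3) in wild-type and 21.5 ± 3.47 (SD, n = 3) in Npffr1-KO iAT, a log2 ratio of 0.81. The groups did not overlap, and each Npffr1-KO library lay above each wild-type library (exact permutation p = 0.1). *Adamts19* had 81.1, 117 and 147 normalized counts in the wild-type libraries, against 71.3, 69.6 and 77.5 in those of Npffr1-KO iAT. Its mean was 115 ± 32.9 (SD, n = 3) and 72.8 ± 4.13 (SD, n = 3), a log2 ratio of -0.66. These groups did not overlap either (exact permutation p = 0.1), and the wild-type library a lay only slightly above the highest Npffr1-KO library. Without the wild-type library c, the highest, the log2 ratio was -0.45, short of 0.5 in size.

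*Adamts18* had 198, 187 and 174 normalized counts in the wild-type libraries, compared with 106, 131 and 111 in the knockout libraries. The mean was 186 ± 12.2 (SD, n = 3) in wild-type and 116 ± 13.3 (SD, n = 3) in Npffr1-KO iAT, a log2 ratio of -0.68 with a gap between the groups larger than the range within either (exact permutation p = 0.1). *Adamtsl3* had 113, 176 and 107 in the wild-type libraries, against 72.3, 94.9 and 97.1 in those of Npffr1-KO iAT. Its mean was 132 ± 38.3 (SD, n = 3) and 88.1 ± 13.7 (SD, n = 3), a log2 ratio of -0.58. The groups did not overlap, but the wild-type library b stood far above the others (exact permutation p = 0.1), and without it the log2 ratio was -0.32. Among the 10 members with a mean of 10 to 100, 2 had groups that did not overlap, *Adamtsl2* and *Adamts19*. Among the 3042 genes of all kinds in that range, the share was 18.1%, with 11.4% lower and 6.74% higher in Npffr1-KO iAT, so the count of members was close to the background. *Adamts18* and *Adamtsl3* lie above that range, where no such share was worked out. Since their acceptance favoured little spread within a genotype, their lack of overlap cannot be set against a background.

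**Figure D4:**
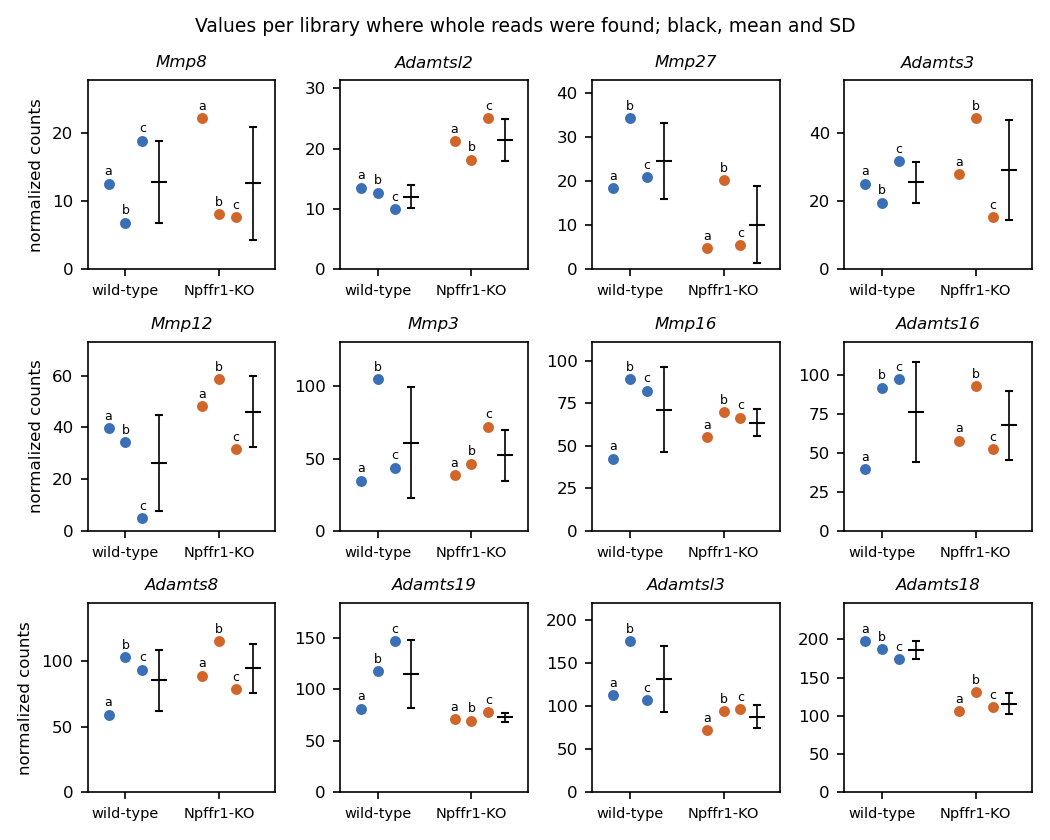
Normalized counts per library for the 12 members with a mean of at least 10 and reads worked out for each library. Points are libraries, lettered a to c within a genotype and not tied to sample numbers, and black marks are the mean with its SD (n = 3). Of the 10 members with a mean of 10 to 100, the genotypes do not overlap for *Adamtsl2* and *Adamts19*, against 18.1% of all genes in that range. They do not overlap for *Adamtsl3* and *Adamts18* either, which lie above that range and have no background share. The genotypes overlap for the other members shown.

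*Mmp27*, a little-studied relative of the stromelysins, had 18.3, 34.3 and 20.8 normalized counts in the wild-type libraries. The Npffr1-KO libraries a and c were far lower, with 4.82 and 5.46, while library b, with 20.2, lay within the wild-type range. The mean was 24.5 ± 8.56 (SD, n = 3) in wild-type and 10.2 ± 8.69 (SD, n = 3) in Npffr1-KO iAT, a log2 ratio of -1.23 (exact permutation p = 0.2). The ratio of the deposited values, -0.85, is closer to 0. Without the Npffr1-KO library b the log2 ratio of the library means was -2.15.

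*Mmp12*, the macrophage elastase, had 39.6, 34.3 and 4.96 normalized counts in the wild-type libraries, compared with 48.2, 58.5 and 31.6 in the knockout libraries. The mean was 26.3 ± 18.6 (SD, n = 3) and 46.1 ± 13.6 (SD, n = 3), a log2 ratio of 0.80, and the groups overlapped (exact permutation p = 0.3). The wild-type library c lay far below all others, and without it the log2 ratio was 0.32. The place of *Mmp12* among the members higher in Npffr1-KO iAT thus rested on this library.

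*Mmp3*, or stromelysin-1, had 34.8, 104.8 and 43.7 normalized counts in the wild-type libraries, against 38.5, 46.4 and 72.0 in those of Npffr1-KO iAT. The wild-type library b was the highest, and without it the log2 ratio turned from -0.22 to 0.41. *Mmp3* shares 14.6% of its transcript sequence, as 31-base words, with other genes, chiefly with *Mmp10*, which itself had 1 read. The effect of this sharing on the *Mmp3* counts was not tested. *Mmp8*, the neutrophil collagenase, had 12.6, 6.85 and 18.9 in the wild-type libraries, compared with 22.2, 8.07 and 7.64 in the knockout libraries. Its means, 12.8 ± 6.0 and 12.6 ± 8.26 (SD, n = 3 each), were far closer together than the libraries of either genotype (exact permutation p = 1). The sign of its log2 ratio, -0.01, turned on leaving out the wild-type library c (0.36), the Npffr1-KO library b (0.22) or the Npffr1-KO library c (0.24).

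*Mmp16*, *Adamts3*, *Adamts8* and *Adamts16* overlapped between the genotypes as well, with exact permutation p-values from 0.6 to 0.9 and log2 ratios of library means from -0.17 to 0.19. *Mmp16* ranged from 42.5 to 89.1 normalized counts in the wild-type libraries and from 54.9 to 69.6 in the Npffr1-KO libraries. *Adamts3* ranged from 19.6 to 31.8 and from 15.3 to 44.4. The wild-type library a was the lowest of its genotype for *Mmp16*, *Adamts8* and *Adamts16*. *Adamts8* ranged from 58.9 to 102.8 in wild-type and from 78.6 to 115 in Npffr1-KO iAT, and *Adamts16* from 39.6 to 97.3 and from 52.4 to 92.8. The sign turned for *Mmp16* without the wild-type library b (0.03), for *Adamts3* without the Npffr1-KO library b (-0.23) and for *Adamts16* without the wild-type library c (0.04). For *Adamts8* it turned without the wild-type library a (-0.06) or the Npffr1-KO library b (-0.02).

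The 5 lowest members were near the limit of detection. *Mmp10*, or stromelysin-2, had 1 read, in the wild-type library b. *Mmp24* had 1 read in the wild-type library a and 1 in the Npffr1-KO library b. *Mmp21* had 3 reads in each wild-type library and 3, 2 and 2 in the knockout libraries, so that the genotypes touch in raw reads. *Mmp13*, the collagenase of cartilage and bone, had 3, 1 and 5 reads in the wild-type libraries, against 11, 4 and 7 in those of Npffr1-KO iAT, with overlapping groups (exact permutation p = 0.2). *Mmp7*, or matrilysin, an enzyme of epithelia, had 0, 0 and 1 reads in the wild-type libraries, compared with 7, 0 and 0 in the knockout libraries.

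All but 1 of the *Mmp7* reads were thus in a single library, and *Mmp8* and *Mmp13* were also highest there, in the Npffr1-KO library a, and highest within wild-type iAT in library c. The keratinocyte gene *Krt5* had 0, 0 and 11 reads in the wild-type libraries, against 21, 0 and 0 in those of Npffr1-KO iAT, and *Krt14* had 0, 0 and 6 and 11, 1 and 1. *Krt10*, the third of the keratinocyte markers, did not show this order, with 67, 99 and 78 and then 80, 60 and 72 reads. Of the cartilage and bone markers, the osteoblast gene *Sp7* showed it, with 4, 10 and 13 reads in the wild-type libraries, compared with 17, 3 and 4 in the knockout libraries. *Col2a1* did not, with 26, 46 and 60 and then 27, 16 and 35 reads, and *Sox9* was highest in the Npffr1-KO library a but about level in the wild-type libraries b and c, with 43, 67 and 66 and then 96, 69 and 75. Of the neutrophil markers with reads per library, *S100a8* was highest within each genotype in the same libraries, with 52, 58 and 85 and then 74, 35 and 43 reads, as was *Ltf*, with 45, 54 and 87 and then 49, 32 and 22. *Camp* had 17, 12 and 45 and then 20, 28 and 17 reads, *Elane* 29, 19 and 28 and then 31, 29 and 17, and *Ly6g* 1, 0 and 4 and then 2, 2 and 1. The part of keratinocytes, bone cells or neutrophils in the reads of *Mmp7*, *Mmp8* and *Mmp13* was not tested.

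Genes that act with the members were described from lists of pathway genes. Of 18 activators and other inhibitors, 13 had a mean of at least 10, with a median log2 ratio of -0.15. Of these, 2 were lower and 1 higher by at least 0.5, against 4.78% and 4.37% of all genes. After centring on genes of like length the median was -0.26, with 1 lower and 1 higher, against 5.17% and 3.36%. *Pcsk5*, a proprotein convertase, had 760.1 normalized counts in wild-type iAT against 484 in Npffr1-KO iAT, a log2 ratio of -0.65, and *Spock2*, a matrix proteoglycan of the testican group, 129 and 90.8, a log2 ratio of -0.50. *Furin*, a convertase that activates membrane-type enzymes, had 2774 and 2634, a log2 ratio of -0.07, and *Reck*, a membrane-anchored inhibitor, had 1240.2 and 909.9, a log2 ratio of -0.45. Plasminogen (*Plg*) had a value of 0.33 in both genotypes.

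Of 14 related metalloproteases, 13 had a mean of at least 10, with a median of -0.12. Of these, 3 were lower and 1 higher by at least 0.5, against 4.78% and 4.37% of all genes. After centring on genes of like length the median was -0.03, with 2 lower and 1 higher, against 5.17% and 3.36%. *Adam33* had 1586 normalized counts in wild-type iAT against 944 in Npffr1-KO iAT, a log2 ratio of -0.75. *Pappa2*, which cuts IGF-binding proteins, had 68.6 and 41.8, a log2 ratio of -0.71. *Tll1*, a tolloid-like protease, had 158 and 111, a log2 ratio of -0.50, or -0.41 after centring. *Bmp1*, the procollagen C-proteinase, had 5445 and 4199.9, a log2 ratio of -0.37. *Mme*, or neprilysin, was higher, with 948 and 1368, a log2 ratio of 0.53.

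Of 20 substrate genes of the members, 19 had a mean of at least 10, and 18 of these had a log2 ratio below 0, with a median of -0.28, or -0.18 after centring on genes of like length. These are long genes, and of the 1404 genes within the middle range of their lengths, 5393 to 7796 bases, 75% lay below 0 with a median of -0.12. *Vwf*, *Acan* and *Fbn2* were lower by at least 0.5, against 4.78% of all genes, with log2 ratios of -0.85, -0.61 and -0.55. After centring, *Vwf* stayed past 0.5 with -0.71, *Acan* and *Fbn2* did not with -0.49 and -0.40, and *Ncan* was higher with 0.63. The fibrillar collagens *Col1a1*, *Col1a2* and *Col3a1* had log2 ratios of -0.36, -0.31 and -0.28, and the basement membrane collagens *Col4a1* and *Col4a2* -0.25 and -0.20. The versican gene *Vcan* had 2131 normalized counts in wild-type iAT compared with 1643 in Npffr1-KO iAT, a log2 ratio of -0.38. The member families that cut these proteins, *Mmp* and *Adamts*, had medians of -0.12 and -0.17. The progenitor and fibroblast markers *Pdgfra*, *Dpp4*, *Pi16*, *Cd34*, *Ly6a* and *Dcn* had a median of -0.16 with 5 of 6 below 0, and summed to 42709.6 and 36334.5 normalized counts. The adipocyte markers *Adipoq*, *Plin1*, *Fabp4*, *Cidec* and *Lpl* had a median of 0.15 with 1 of 5 below 0. After centring on genes of like length, the median was 0.06 for the adipocyte markers, with 2 of 5 below 0. For the progenitor and fibroblast markers it was -0.23, with 5 of 6 below 0. The part of these cells in the values of the members was not tested.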

How the data were processed

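The iAT transcriptomes of 3 wild-type and 3 Npffr1-KO samples were grouped by the genotype in their labels. The authors deposited a table with 1 normalized read count signal per gene and genotype, and the gene length in bases. The submitters' processing notes name Bowtie2, RSEM and DESeq2, with versions, genome build and counting by strand not given in the sources used here. The authors' fold changes, p-values, adjusted p-values and calls were not used, nor was a second table that repeats a subset of genes. Members and lists were chosen with earlier results of these data known. All 48 members were named. Lists were described by counts and medians, with no set test, and the values of some listed genes are not reported here.

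Log2 ratios were computed for 15309 genes, those with means of at least 10. Whole reads of the 6 libraries were sought by a lattice search for combinations that give the mean of the genotype values to their 15 digits. They were accepted where fewer than 0.01 chance matches were expected. The search was tested on simulated data. Reads were divided by the library size factors (0.916 to 1.04) and compared by a two-sided exact permutation test, with p-values unadjusted. A prior of 0.5 was added to library means for their log2 ratio. Total reads per sample are unknown. Shared 31-base words came from GENCODE M21, and gene overlaps and promoters from RefSeq. Python 3.11.15, NumPy 2.4.6, pandas 2.3.3, SciPy 1.17.1, Numba 0.67.0 and Matplotlib 3.10.9 were used. Alternatives changed the threshold, the minimum, the centring, the pseudocount, the prior and the libraries.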

Additional observations from a re-analysis of the deposited data

How the results depend on the processing

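With a threshold of 0.3 on the log2 ratio, 17 members were lower and 4 higher in Npffr1-KO iAT, against 12.9% and 13.7% of all genes, and with a threshold of 1 there were 0 and 0, against 0.314% and 0.483%. The count of higher members was 0 with a minimum mean of 50, 0 with a pseudocount of 10 and 4 after centring on genes of like length, where *Adamts5* and *Mmp25* passed. The construction of the first 2 settings removes or draws in *Adamtsl2* and *Mmp12*, which have few reads. The median of the *Adamts* family was -0.065 after centring on genes of like length. The count of members with a mean of 10 to 100 whose libraries do not overlap ranged from 2 to 4 when a library was left out, the highest being without the wild-type library a, where 29.7% of the 3042 genes of all kinds did not overlap. That share ran from 25% to 30.1% over the libraries left out. With raw reads the count was 2, against 17.5%. The log2 ratios of library means were worked out over 108 settings, with no test run in them. Their sign turned on leaving out a library for *Mmp3*, *Mmp8*, *Mmp16*, *Adamts3*, *Adamts8* and *Adamts16*. Without division by length, 8 of the 10 highest members were the same. No paired analysis was possible because the deposited columns carry no replicate numbers and the libraries could not be tied to sample numbers. For 31 members no spread between libraries is known, the *Timp* genes and *Adamtsl1* among them, so whether their ratios exceed the spread between samples was not tested.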

Other observations

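Ratios between partner genes on the scale per kilobase differed between the genotypes in part. *Timp2* was 19.3 times as high as *Timp1* in wild-type and 13.2 times in Npffr1-KO iAT, and *Mmp2* was 22.1 and 16.2 times as high as *Mmp9*. *Adamts5* was 2.34 times as high as *Adamts4* in wild-type and 4.27 times in Npffr1-KO iAT, and *Adamts2* was 5.07 and 6.73 times as high as *Adamts14*. The ratio of *Timp2* to *Mmp2* was 1.74 and 1.68, and that of *Timp2* to *Mmp14* 1.47 and 1.34. These ratios have no error, since the genotype values carry none, and they were not centred on genes of like length. *Timp1* has a listed length of 903 bases and *Timp2* of 3635. Their log2 ratios of Npffr1-KO to wild-type were 0.26 and -0.30, and 0.05 and -0.24 after centring.

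Marker genes of other cell types had the following values, with no test and no centring on genes of like length. The mast cell genes *Cpa3*, *Mcpt4* and *Cma1*, which encode granule proteases, had log2 ratios of -0.57, -0.57 and -0.51, and *Kit* -0.32. The T cell genes *Cd3e*, *Cd3d*, *Lck* and *Cd8a* had log2 ratios from 0.56 to 0.74. The mural cell genes *Rgs5*, *Acta2* and *Myh11* had a median of -0.19. The skeletal muscle genes *Acta1*, *Ckm*, *Tnnt3* and *Myh8* summed to 388 normalized counts in wild-type iAT against 739 in Npffr1-KO iAT, with a median log2 ratio of 0.75. *Krt8* had 4 to 10 reads a library, while *Krt18* and *Epcam* had log2 ratios of -0.07 and 0.34. *Col2a1* and *Sox9* had log2 ratios of -0.56 and 0.45, and the liver genes *Alb* and *Apoa1* 0.04 and -0.52.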
